A study of Mus musculus with 8 samples.

Results

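Genes of intraflagellar transport, of the BBSome and of the motors that carry them were compared between 2D- and 3D-cultured mouse adipose-derived stem cells (ADSCs). The 44 genes were taken by symbol from the known membership of these complexes, and all 44 were among the 24346 genes listed for the series. They comprised 6 genes of the IFT-A complex, 11 of the IFT-B core, 6 of the IFT-B periphery, 8 subunits of the BBSome, 3 chaperonin-like assembly factors of the BBSome, 2 genes of its recruitment, 4 kinesin-2 genes and 4 dynein-2 genes. Each of the 44 was above 0 in at least 1 library, so none was lost to the filter on low values.

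The cells were primary cultures from the gonadal adipose tissue of 12-week-old male WT mice of the BALB/c strain, labelled as mesenchymal stem cells in both groups. The 4 libraries of 2D cultures came from mice 2, 3, 4 and 5, and the 4 libraries of 3D cultures, in which cells grew as organoids in Matrigel, came from mice 1, 4, 5 and 7. Mice 4 and 5 thus gave a library of each kind, and each other mouse gave a library of 1 kind. The medium and passage of the sequenced cultures are not given in the sources used here, so medium, matrix and passage cannot be told apart from the culture type.

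A primary cilium is a single antenna-like projection that many resting cells, stromal and epithelial, build on a centriole. Since no protein is made inside it, tubulin and membrane proteins are carried in by trains of IFT-B, which kinesin-2 pulls towards the tip, and are carried back by IFT-A and dynein-2. The BBSome rides on these trains and takes signalling receptors out of the cilium. The regulatory factor X (RFX) transcription factors are known to bind an element named the X-box before many of these genes, and FOXJ1 acts with them in cells with motile cilia.

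The X-box is shown first, as a sequence feature found in some genes of several of these complexes, though not in most of the promoters searched. RefSeq promoters (GRCm38.p6, 250 bases before to 50 bases after the gene start) were at hand for 39 of the 44 genes. The motif searched was GTNNCC and GNAAC with 3 free bases between them, where N is any base, read on both strands. It was in 6 of these 39 promoters (15.4%) and in 2.49% of the promoters of all 27025 genes. Capitals mark the motif in the windows below, each written 5′ to 3′ in the direction of the gene.
Ift22 (chr5:136908079-136908108): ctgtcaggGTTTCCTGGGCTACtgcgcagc
Ift22 (chr5:136908109-136908138): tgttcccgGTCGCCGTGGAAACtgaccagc
Ttc26 (chr6:38381483-38381512): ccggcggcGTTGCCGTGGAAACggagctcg
Ift57 (chr16:49699199-49699228): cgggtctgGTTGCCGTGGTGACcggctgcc
Bbs1 (chr19:4906605-4906634): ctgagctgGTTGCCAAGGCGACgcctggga
Bbs4 (chr9:59353464-59353493): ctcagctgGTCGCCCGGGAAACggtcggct
Bbs7 (chr3:36613489-36613518): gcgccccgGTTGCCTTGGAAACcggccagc

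Ift22 thus held 2 matches, which do not overlap, and the match of Bbs1 began 1 base after the gene start. With 1 free base less between them the motif was in 3 of the 39 promoters, against 1.81% of all genes, and with 1 free base more in 1 of them, against 0.821%. The shorter form is shown for Ift57, whose promoter held both forms, and for Kif17, the kinesin gene with the lowest level in 2D.
Ift57 (chr16:49699226-49699254): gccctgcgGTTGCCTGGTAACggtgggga
Kif17 (chr4:138262170-138262198): tcacggagGTTGCCCAGCAACggcgaacg

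A match is a description of letters and not a site of binding. Of the genes that were higher in 3D in the test below, 5 of 26 with a promoter held the main form, and of the other genes 1 of 13. That gene was Bbs7, whose level did not pass the test. Ift122, Ift81, Ttc30b, Ift80 and Dync2li1 had no promoter entry.

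The values were FPKM (fragments per kilobase of transcript, scaled to the depth of the library), so levels of different genes can be set side by side. Levels below are FPKM after quantile normalization, listed for 2D in the order of mice 2, 3, 4 and 5 and for 3D in the order of mice 1, 4, 5 and 7. Differences are fitted log2 fold changes of 3D over 2D on the log2(FPKM + 1) scale with their standard error (SE), with limma's moderated test and p-values adjusted over all 18862 genes tested. A pseudocount of 1 makes the fold change of a low gene smaller than the ratio of its levels. The depth, estimated from the steps between low values, was 17.3 to 18.3 M fragments in 2D and 15.3 to 16.4 M in 3D. The 8 libraries split clearly by culture, with correlations of 0.932 to 0.974 within a culture type and of 0.758 to 0.823 between them. The labelled stromal identity held in 2D only. Of 12 stromal markers, 11 fell in 3D, where their summed level was 4.82 to 8.34 FPKM against 1659 to 3549.6 in 2D, and Pdgfrb and Dcn were listed at 0 in all 4 libraries of 3D. Of 12 epithelial markers, 11 rose, with summed levels of 2723 to 3183 FPKM in 3D. In 2D their sums were 31.8, 176, 694 and 31.8, and Krt8 and Krt18 gave most of the sums of mice 3 and 4. In bulk RNA, fewer cells of a type and less RNA per cell cannot be told apart.

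Of the 44 genes, 31 were higher and 3 lower in 3D at an adjusted p below 0.05, and 10 did not pass. Over all genes tested, 21.2% were higher and 20.3% lower. The median log2 fold change was 1.04 over the 44 genes and 0.0012 over all genes tested. Among the 12577 genes whose mean was 1 FPKM or more, which hold all of the 44 but Kif17, the shares were 27.1% and 26%. The 4 libraries of 3D lay above all 4 of 2D for 31 genes, against 21.6% of all genes, and below them for 4 genes, against 20.9%. All 31 genes that rose were also the 31 without overlap. When the mouse was fitted as a block, with 1 residual degree of freedom left, 0 of the 34 calls passed (limma, lowest adjusted p 0.111). In that fit only mice 4 and 5, which gave both kinds of culture, inform the difference, and 0 of all 18862 genes passed in either direction. At an unadjusted p under 0.05 that fit had 18 of the 44 higher and 1 lower. The share of all genes at that unadjusted threshold was not counted, so these counts show nothing particular to the 44. With only mice 4 and 5, 13 were higher and 1 lower, against 1788 and 1432 of the 18081 genes tested in that fit.

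**Figure D1:**
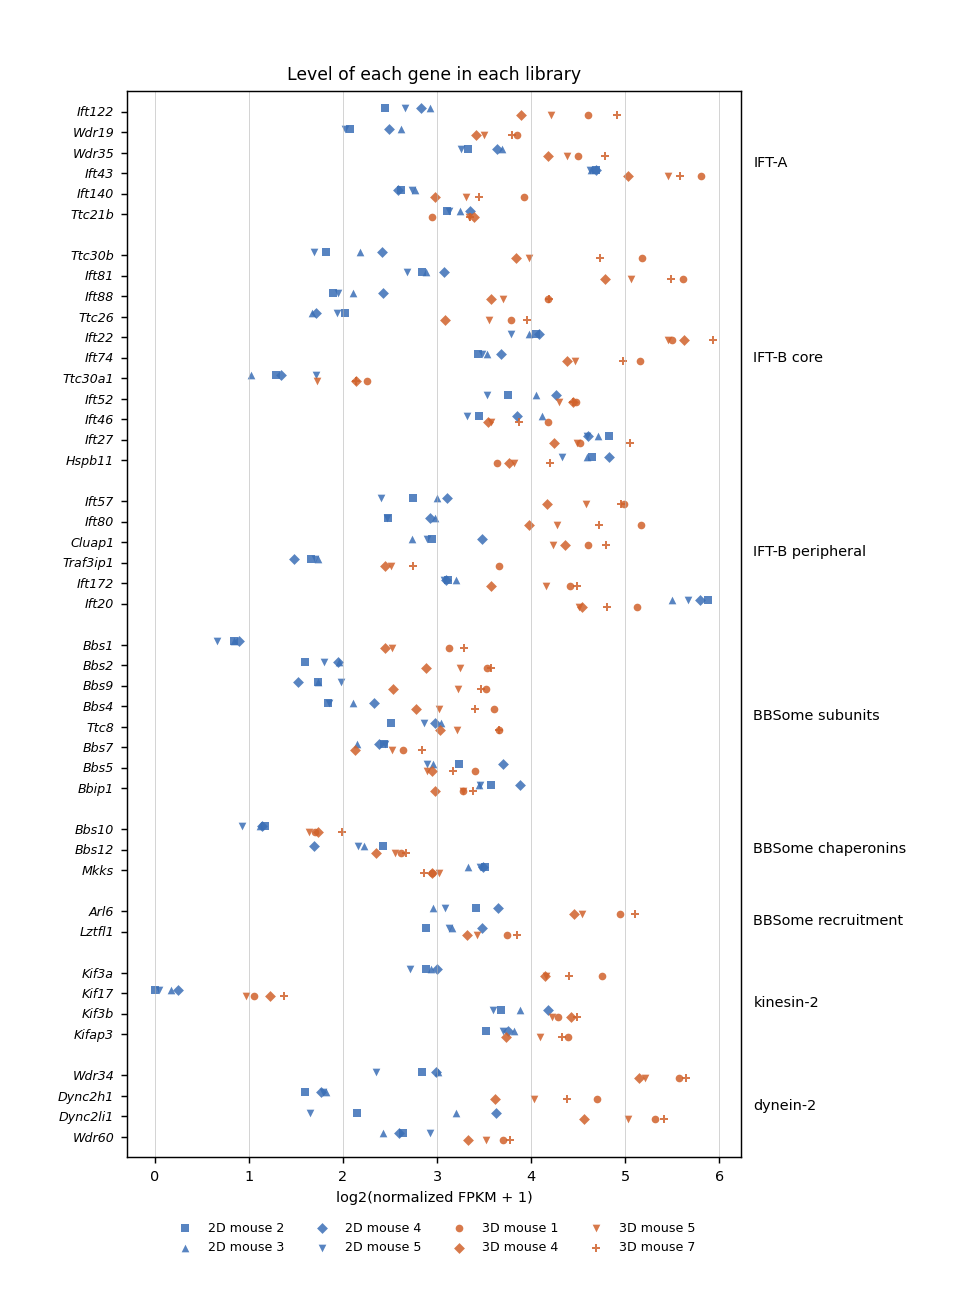
Level of each of the 44 genes, as log2(normalized FPKM + 1) on the horizontal axis, with a point for each library of 2D (blue) and 3D (orange) and a marker for each mouse, grouped by complex. In 31 rows all orange points lie to the right of the blue ones, and in those of Ift20, Hspb11, Mkks and Bbip1 they lie to the left.

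Of the 8 groups of genes, dynein-2 had the largest median rise. This motor carries IFT trains from the tip of the cilium back to its base. All 4 of its genes rose, with a median log2 fold change of 2.43. Wdr34, an intermediate chain (chr2:30031546-30048881), was at 6.16, 7.08, 6.93 and 4.11 FPKM in 2D and at 46.7, 34.4, 36.1 and 49.1 in 3D. Dync2h1, the heavy chain that holds the motor (chr9:6928503-7184446), was at 2.03, 2.53, 2.41 and 2.44 in 2D and at 24.9, 11.3, 15.3 and 19.8 in 3D. Every library of 3D thus stood far above the narrow range of 2D for both genes. The log2 fold change was 2.60 ± 0.19 (SE, n = 4 per group, adjusted p 3.55e-05) for Wdr34 and 2.44 ± 0.23 (adjusted p 0.000132) for Dync2h1.

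Dync2li1, the light intermediate chain (chr17:84626496-84655588), had a wider spread in 2D, at 3.44, 8.19, 11.3 and 2.14 FPKM, and was at 38.7, 22.6, 31.7 and 41.7 in 3D. Its libraries of mice 3 and 4 were the high ones in 2D, and none reached the lowest of 3D (log2 fold change 2.42 ± 0.44, adjusted p 0.00351). Wdr60, the other intermediate chain, was at 5.24, 4.38, 5.04 and 6.59 in 2D and at 12.03, 9.08, 10.5 and 12.7 in 3D, which was a smaller rise of 0.94 ± 0.15 (adjusted p 0.00208). The level of Wdr34 over that of Wdr60 was 0.624 to 1.62 across 2D libraries and 3.45 to 3.88 across 3D libraries. This ratio and the others below were chosen after the values were seen and carry no test. Not every ratio of partners differed between the culture types. Dync2li1 over Dync2h1 was 0.874 to 4.68 in 2D and 1.55 to 2.11 in 3D. Cluap1 over Ift57, of the IFT-B periphery, was 0.811 to 1.51 in 2D and 0.761 to 1.15 in 3D.

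Kinesin-2 pulls the trains towards the tip. Of its 4 genes, 3 rose and 1 did not pass, with a median log2 fold change of 0.78. Kif3a, a motor subunit of the heterotrimer (chr11:53567379-53601967), was at 6.37, 6.66, 7.02 and 5.57 FPKM in 2D and at 25.9, 16.8, 16.9 and 20.1 in 3D. Its partner Kif3b, the kinesin-2 gene with the highest mean level over all 8 libraries, was at 11.8, 13.7, 17.1 and 11.1 in 2D and at 18.5, 20.4, 17.7 and 21.5 in 3D. Neither overlapped between the culture types, but the rise was 1.48 ± 0.15 (adjusted p 0.000215) for Kif3a and 0.52 ± 0.14 (adjusted p 0.0191) for Kif3b. The call for Kif3b was lost without 2D mouse 2 or without 3D mouse 7, with adjusted p up to 0.0532. The level of Kif3b over Kif3a was 1.85 to 2.43 in 2D and 0.715 to 1.22 in 3D.

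Kifap3, the cargo adaptor of the heterotrimer, was at 10.5 to 13.1 FPKM in 2D and 12.3 to 19.95 in 3D, with overlap (0.44 ± 0.16, adjusted p 0.0571). It passed with the filter at 1 FPKM (adjusted p 0.0436), with a correction for transcript length and GC content (adjusted p 0.0321) and without 3D mouse 4 (adjusted p 0.00995). Kif17, a kinesin-2 motor that works as a homodimer, was near 0 in 2D, at 0, 0.129, 0.188 and 0.0309 FPKM, and was at 1.08, 1.34, 0.965 and 1.60 in 3D. The 2D libraries of mice 2 and 5 lay at or under the level that 3 fragments give at its length. It rose by 1.04 ± 0.10 on the log2(FPKM + 1) scale (adjusted p 0.000188), a value that depends on the pseudocount. Part of its exons is shared with Sh2d5 on the same strand, so its value is uncertain. It was also the gene with the lowest level of the 44 in both culture types.

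IFT-A links trains to dynein-2 and brings receptors into the cilium. Of its 6 genes, 5 rose and 1 did not pass, with a median of 0.89. Ift122, a core subunit (chr6:115853470-115926699), was at 4.44, 6.60, 6.13 and 5.30 FPKM in 2D and at 23.4, 13.8, 17.5 and 29.1 in 3D. Wdr19, another core subunit, was at 3.22, 5.14, 4.63 and 3.07 in 2D and at 13.4, 9.64, 10.3 and 12.9 in 3D. In both genes the 3D libraries of mice 4 and 5 were the lower ones and still lay above every 2D library. The log2 fold change was 1.69 ± 0.23 (adjusted p 0.000861) for Ift122 and 1.34 ± 0.19 (adjusted p 0.000951) for Wdr19.

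Wdr35, a further subunit, was at 9.05, 11.9, 11.4 and 8.57 FPKM in 2D and at 21.5, 17.1, 19.8 and 26.5 in 3D (0.98 ± 0.16, adjusted p 0.00211). Ift43, a small subunit with the highest mean level of the complex, was at 24.9, 23.9, 24.8 and 23.6 in 2D and at 54.8, 31.5, 42.7 and 46.9 in 3D (0.80 ± 0.15, adjusted p 0.00440). The 4 libraries of 2D were nearly level for Ift43, whereas those of 3D ranged widely. Ift140 rose by 0.74 ± 0.20 (adjusted p 0.0201), from 5.02 to 5.78 FPKM in 2D to 6.85 to 14.2 in 3D. Ttc21b, the exception of the complex, was at 7.64, 8.44, 9.22 and 7.74 in 2D and at 6.72, 9.48, 9.12 and 9.23 in 3D. Its groups overlapped, with a log2 fold change of 0.05 and a 95% interval of -0.26 to 0.36 (adjusted p 0.776).

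The core of IFT-B forms the backbone of the train that leads into the cilium. Of its 11 genes, 8 rose, 1 fell and 2 did not pass, with a median of 1.22. Ift81, which binds tubulin together with Ift74 (chr5:122550204-122614518), was at 6.19, 6.37, 7.44 and 5.41 FPKM in 2D and at 47.8, 26.5, 32.4 and 43.8 in 3D. Ttc30b, a tetratricopeptide repeat subunit (chr2:75935849-75938585), was at 2.52, 3.52, 4.33 and 2.24 in 2D and at 35.2, 13.3, 14.8 and 25.5 in 3D. For both, even the lowest library of 3D lay well above the highest of 2D. The log2 fold change was 2.36 ± 0.19 (adjusted p 6.79e-05) for Ift81 and 2.41 ± 0.33 (adjusted p 0.000825) for Ttc30b.

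Ift88, the subunit known from the polycystic kidneys of its mouse mutant (chr14:57424062-57517936), was at 2.72, 3.31, 4.37 and 2.86 FPKM in 2D and at 17.1, 10.9, 11.96 and 17.3 in 3D. Ttc26 was at 3.08, 2.19, 2.28 and 2.84 in 2D and at 12.8, 7.46, 10.7 and 14.5 in 3D. Neither gene overlapped between the culture types, and 3D mouse 4 was the lowest library of 3D for both. The rise was 1.82 ± 0.20 (adjusted p 0.000280) for Ift88 and 1.76 ± 0.21 (adjusted p 0.000445) for Ttc26. Ift22, a GTPase-like subunit whose promoter held 2 X-box matches, was the core gene with the highest mean level over all 8 libraries, though not in 2D alone, at 15.6, 14.7, 15.9 and 12.8 in 2D and at 44.1, 48.4, 42.8 and 60.1 in 3D. Its rise of 1.66 ± 0.12 had the smallest adjusted p of the core, 4.44e-05.

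Ift74 rose by 1.22 ± 0.19 (adjusted p 0.00150), from 9.82 to 11.8 FPKM in 2D to 19.9 to 34.7 in 3D. The level of Ift81 over that of its tubulin-binding partner Ift74 was 0.533 to 0.630 in 2D and 1.33 to 1.54 in 3D. Ift52 was at 10.6 to 18.2 FPKM in 2D and at 18.7 to 21.2 in 3D (0.51 ± 0.16, adjusted p 0.0332). Its highest 2D library lay just under the lowest of 3D, and the call was lost without 2D mouse 2 or 5 or without any single library of 3D (adjusted p up to 0.0831), and with the values as deposited or median scaling. Ttc30a1, at 1.03 to 2.28 in 2D and 2.31 to 3.79 in 3D, rose by 0.73 ± 0.20 (adjusted p 0.0198), a call that was lost without 2D mouse 2 or 3D mouse 7 (adjusted p up to 0.0506). Of its 50-base stretches, 18.9% are also in Ttc30b and 28.3% in Ttc30a2. Of those of Ttc30b, 25.8% are also in Ttc30a1 and 30.1% in Ttc30a2. Reads may be split between these genes, so the values of Ttc30a1 and Ttc30b are both uncertain. Ift46 was at 9.01 to 16.3 in 2D and 10.7 to 17.1 in 3D and did not pass (0.11 ± 0.22, adjusted p 0.707).

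Hspb11 and Ift27 encode a dimer of the core that is known to act in the exit of the BBSome from cilia, and neither rose. Hspb11 (chr4:107253593-107279938) was at 24.1, 23.2, 27.4 and 19.1 FPKM in 2D and at 11.4, 12.5, 13.1 and 17.3 in 3D. Ift27 was at 27.5, 25.2, 23.3 and 23.2 in 2D and at 22.0, 17.9, 21.4 and 32.0 in 3D. Every 3D library lay under every 2D library for Hspb11, which fell by 0.75 ± 0.15 on the log2 scale (adjusted p 0.00572). For Ift27 the groups overlapped, since 3D mouse 7 was the highest library of all, and the difference was -0.11 with a 95% interval of -0.50 to 0.28 (adjusted p 0.619). In 2D both were among the core genes with the highest levels, and in 3D the means of Ift22, Ift81 and Ift74 stood above those of both. The 3D means of Ttc30b, Ift52 and Ift88 also lay above that of Hspb11.

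The periphery of IFT-B binds kinesin-2 and cargo. Of its 6 genes, 5 rose and 1 fell, with a median of 1.34. Ift57 (chr16:49699233-49765126) was at 5.71, 6.98, 7.64 and 4.28 FPKM in 2D and at 30.7, 16.9, 22.9 and 29.98 in 3D. Ift80, mutated in a skeletal dysplasia with a narrow thorax, was at 4.56, 6.91, 6.61 and 4.54 in 2D and at 34.9, 14.8, 18.3 and 25.5 in 3D. For both, the lowest library of 3D was that of mouse 4, which still lay above all of 2D. The log2 fold change was 1.86 ± 0.23 (adjusted p 0.000528) for Ift57 and 1.82 ± 0.27 (adjusted p 0.00131) for Ift80.

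Cluap1, the partner of Ift57 in the train, was at 6.71, 5.66, 10.1 and 6.44 FPKM in 2D and at 23.4, 19.5, 17.8 and 26.8 in 3D (1.49 ± 0.19, adjusted p 0.000673). Part of its exons is shared with Gm20695 on the same strand, so its value is uncertain. Traf3ip1, the microtubule-binding partner of Ift20, was at 2.16, 2.33, 1.79 and 2.26 in 2D and at 11.6, 4.47, 4.71 and 5.71 in 3D (1.20 ± 0.28, adjusted p 0.0101). Mouse 1 gave by far the highest level of Traf3ip1, and without 2D mice 3 and 4 together its call was lost (adjusted p 0.0516). Ift172, the largest peripheral subunit, rose by 1.04 ± 0.20 (adjusted p 0.00420), from 7.45 to 8.17 FPKM in 2D to 10.9 to 21.4 in 3D.

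Ift20, which also works at the Golgi in sorting cargo for the cilium (chr11:78536361-78541737), went against the rest of the periphery. It was at 58.1, 44.2, 54.4 and 49.9 FPKM in 2D and at 33.9, 22.2, 21.7 and 27.0 in 3D. The 2 groups did not overlap, and it fell by 0.97 ± 0.15 on the log2 scale (adjusted p 0.00190). With a mean of 51.6 ± 5.97 FPKM (SD, n = 4), it was the most abundant of the 44 genes in 2D. In 3D it was at 26.2 ± 5.65, next to Ift57 at 25.1 ± 6.497, a difference smaller than either SD. The level of Ift20 over its partner Traf3ip1 was 19.0 to 30.3 in 2D and 2.92 to 4.98 in 3D.

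**Figure D2:**
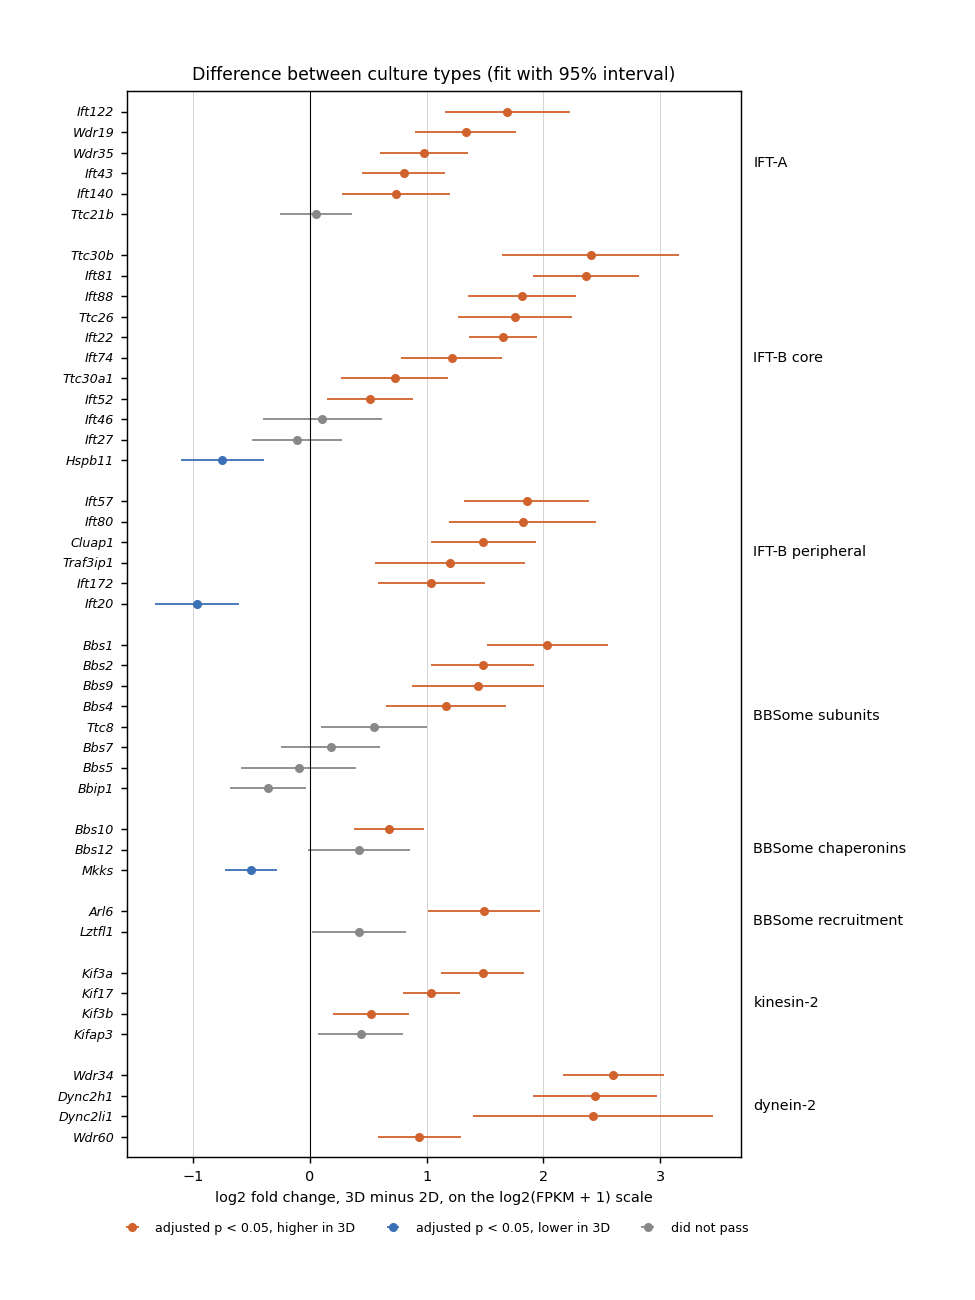
Log2 fold change of 3D over 2D for each of the 44 genes on the log2(FPKM + 1) scale, with 95% intervals from the fit (n = 4 per group), by complex. Orange genes were higher and blue genes lower in 3D at an adjusted p below 0.05, and grey genes did not pass. All 4 dynein-2 genes lie to the right of 0, and Ift20, Hspb11 and Mkks lie to the left.

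Of the 8 subunits of the BBSome, 4 rose and 4 did not pass, with a median of 0.86. Bbs1, a subunit often mutated in human Bardet-Biedl syndrome (chr19:4886878-4906628), was at 0.793, 0.797, 0.867 and 0.579 FPKM in 2D and at 7.73, 4.45, 4.73 and 8.75 in 3D. It was the lowest subunit in 2D by far, and it rose by 2.03 ± 0.22 (adjusted p 0.000291), the largest rise of the complex. Bbs2 was at 2.04, 2.87, 2.87 and 2.49 in 2D and at 10.5, 6.38, 8.45 and 10.9 in 3D (1.48 ± 0.19, adjusted p 0.000645). Bbs9 was at 2.32, 2.33, 1.88 and 2.94 in 2D and at 10.5, 4.77, 8.35 and 10.02 in 3D (1.44 ± 0.24, adjusted p 0.00237). None of these genes overlapped between the culture types.

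Bbs4, a subunit that binds the material around centrioles, was at 2.58, 3.32, 4.01 and 2.60 FPKM in 2D and at 11.1, 5.83, 7.11 and 9.58 in 3D (1.17 ± 0.22, adjusted p 0.00409). Ttc8 was at 4.68 to 7.23 in 2D and 7.18 to 11.7 in 3D and narrowly did not pass (0.55 ± 0.20, adjusted p 0.0567). It did pass with the values as deposited, with median scaling, with a pseudocount of 0.1, with the filter at 1 FPKM, with the length and GC correction and without 3D mouse 4. Bbs7 was at 3.42 to 4.47 in 2D and 3.36 to 6.18 in 3D (0.18 ± 0.18, adjusted p 0.464). Bbs5, which binds phosphoinositides, was at 6.44 to 12.04 in 2D and 6.44 to 9.61 in 3D (-0.09 ± 0.21, adjusted p 0.739). Both overlapped between the culture types.

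Bbip1, the smallest subunit and the one with the highest mean level over all 8 libraries, was at 10.9, 9.88, 13.7 and 9.97 FPKM in 2D and at 8.67, 6.90, 8.72 and 9.46 in 3D. All 4 libraries of 3D lay under those of 2D, but the difference of -0.36 ± 0.14 did not pass (adjusted p 0.0796). In 2D the mean levels of the 8 subunits ranged 14.6-fold, from Bbs1 at 0.759 ± 0.125 to Bbip1 at 11.1 ± 1.80 FPKM. In 3D they ranged 1.98-fold, from Bbs7 at 4.88 ± 1.17 to Ttc8 at 9.68 ± 2.29. The IFT-B periphery likewise went from 24.2-fold to 3.96-fold, kinesin-2 from 154-fold to 16.0-fold and the chaperonins from 8.72-fold to 2.77-fold. For IFT-A the span was 6.06-fold in 2D and 5.09-fold in 3D, and for the IFT-B core 15.8-fold and 15.1-fold. Each span rests on the lowest and the highest gene only, such as Bbs1 in 2D, Ift20 and Traf3ip1 in the periphery and Kif17 in kinesin-2. The span widened for dynein-2, from 2.66-fold to 3.75-fold, and for the recruitment genes, from 1.10-fold to 2.40-fold. These spans were compared after the values were seen.

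**Figure D3:**
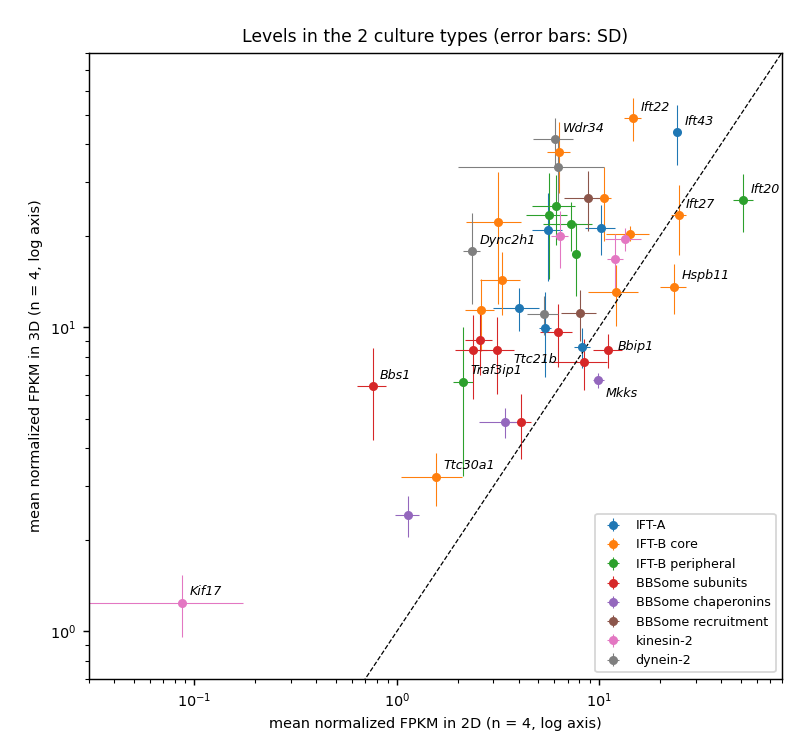
Mean normalized FPKM of each of the 44 genes in 2D (horizontal) and 3D (vertical) on log axes, colored by complex, with SD as error bars (n = 4 per group) and the line of equal levels dashed. The BBSome subunits, in red, spread over a 14.6-fold range across 2D and a 1.98-fold range across 3D, and Ift20, Hspb11 and Mkks lie under the line. The left error bar of Kif17 runs past the axis.

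The chaperonin-like factors fold BBSome subunits before assembly. Of the 3 genes, 1 rose, 1 fell and 1 did not pass, with a median of 0.42. Mkks (chr2:136873780-136891389) was at 10.4, 9.02, 10.3 and 9.95 FPKM in 2D and at 6.69, 6.71, 7.14 and 6.25 in 3D. Bbs10 was at 1.26, 1.17, 1.21 and 0.907 in 2D and at 2.27, 2.34, 2.11 and 2.97 in 3D. The groups did not overlap for either gene and moved in opposite ways. Mkks fell by 0.50 ± 0.10 on the log2 scale (adjusted p 0.00435), and Bbs10 rose by 0.68 ± 0.13 (adjusted p 0.00437). Mkks shares part of its exons with the gene models AL731706.1 and AL731706.2 on the same strand, so its value is uncertain. Bbs12 was at 2.23 to 4.38 in 2D and 4.10 to 5.37 in 3D and did not pass (0.42 ± 0.19, adjusted p 0.109), but it did with the values as deposited, with median scaling and with a length and GC correction. A small part of its exons is shared with Gm43439 on the same strand.

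The recruitment genes set where the BBSome goes. Arl6, the GTPase that brings the BBSome to the membrane (chr16:59612949-59639391), was at 9.65, 6.76, 11.6 and 7.47 FPKM in 2D and at 29.9, 21.02, 22.3 and 33.4 in 3D. It rose by 1.49 ± 0.21 (adjusted p 0.000909), with no overlap. Lztfl1, which holds the BBSome back from cilia, was at 6.35, 7.95, 10.2 and 7.74 in 2D and at 12.4, 8.98, 9.73 and 13.4 in 3D. Its groups overlapped, and it did not pass (0.42 ± 0.17, adjusted p 0.0904), except with the values as deposited or without 2D mouse 4. Ift88, Ift57, Bbs4, Bbs12, Bbip1, Arl6, Lztfl1, Mkks and Cluap1 each overlap a gene of the opposite strand in part. The strand setting of the counting is not given in the sources used here, so some of their signal may belong to that partner.

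The libraries of each culture type were not alike in these genes. Over the 44 genes, the median log2(FPKM + 1) was 2.79, 2.96, 3.04 and 2.73 in 2D and 4.18, 3.58, 3.76 and 4.19 in 3D. The 3D libraries of mice 1 and 7 were thus the high ones. Both lay above both of mice 4 and 5 for 35 of the 44 genes (79.5%), and for 18.2% of the 12577 genes whose mean was 1 FPKM or more. In 2D, mice 3 and 4 both lay above mice 2 and 5 for 23 of the 44 genes (52.3%), and for 29.4% of those 12577. Mice 4 and 5, which gave both kinds of culture, hence contributed the lower libraries of 3D. With them alone the median rise was smaller for the IFT-B core (0.84), the IFT-B periphery (1.00), the BBSome subunits (0.51) and the recruitment genes (0.60). It was also smaller for IFT-A (0.70), kinesin-2 (0.70) and dynein-2 (2.10), and larger for the chaperonins (0.53).

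**Figure D4:**
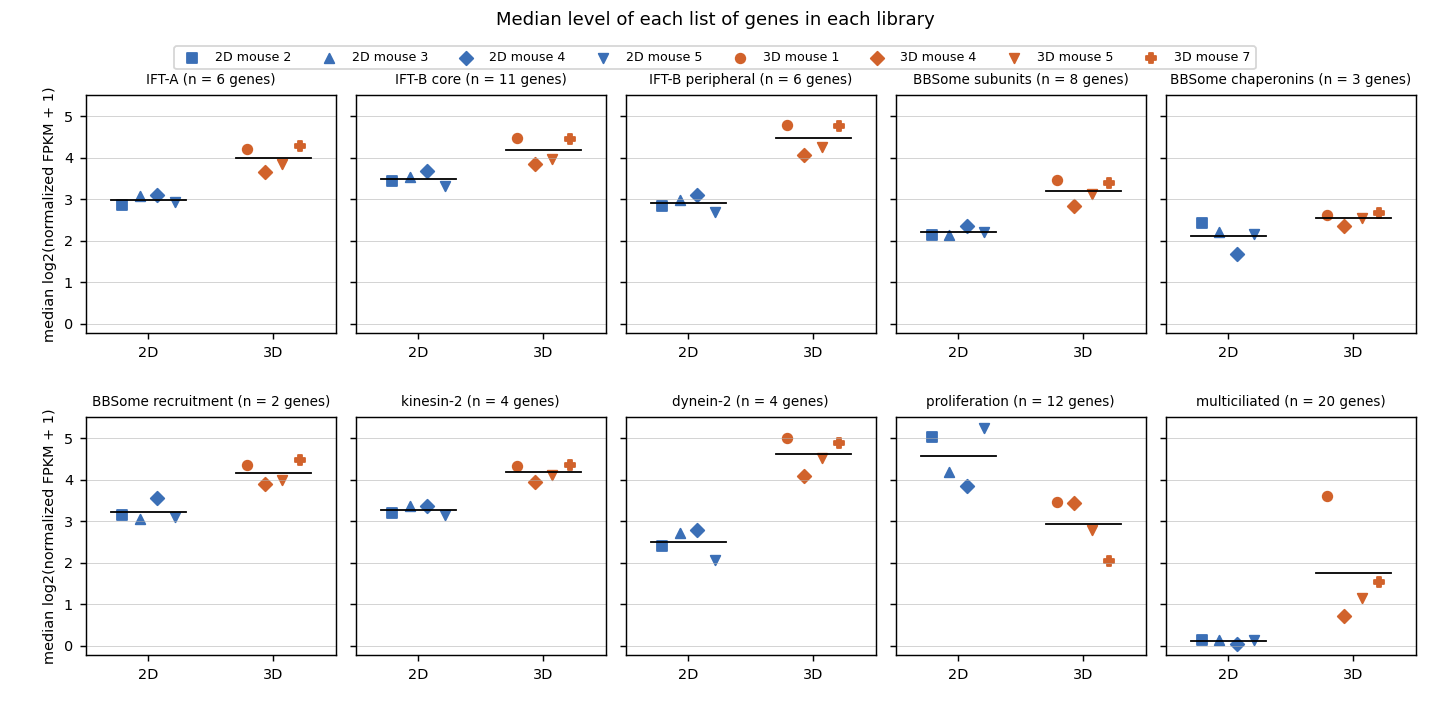
Median log2(normalized FPKM + 1) over the genes of each list in each library, with a marker for each mouse and a line at the mean of the 4 libraries of a culture type. In every complex the 3D libraries of mice 1 and 7 lie above those of mice 4 and 5, and the last 2 panels give the proliferation and multiciliated marker lists in the same libraries.

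The genes also moved up within the ranking of all genes. The median percentile of the 44 among the 18862 genes tested was 56.2 in 2D, with a range of 22.1 to 91.9, and 71.8 in 3D, with a range of 38.7 to 91.5. Ift81 was at the percentile 56.4 in 2D and 88.9 in 3D, and Dync2h1 at 43.8 and 76.8. Ift20 was at 91.9 and 83.7.

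The rest of the cilium was described by 6 lists of 77 tested genes. Of these, 41 were higher (53.2%) and 14 lower (18.2%), with a median log2 fold change of 0.64. Over all genes tested, 21.2% were higher and 20.3% lower, so the share of falls was near that of all genes. The transition zone, the gate at the base of the cilium, had 16 of 20 genes higher, and 4 did not pass. Tctn1 and B9d1, subunits of its membrane complex, rose most, by 2.62 ± 0.19 and 2.43 ± 0.24. Of the genes of the basal body and its appendages, 10 of 17 were higher and 7 did not pass, with the largest rises for Ccp110 (1.91 ± 0.21), a cap of the centriole that also curbs cilium growth, and Rabl2 (1.79 ± 0.26), a GTPase that starts the entry of trains.

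The other lists moved in both directions. Of the genes of ciliary membrane traffic, 5 of 17 were higher (29.4%) and 7 lower (41.2%). Among all genes with a mean of 1 FPKM or more, 27.1% were higher and 26% lower, so the share of rises was near that of all such genes. Unc119b, a carrier of lipid-modified cargo, rose by 1.66 ± 0.12, and Tbc1d32 rose by 1.48 ± 0.14. Gpr161, a ciliary receptor that holds back hedgehog signalling, fell by 2.12 ± 0.16, and Ehd1, which shapes the early ciliary membrane, fell by 2.08 ± 0.20. Of the genes of cilium disassembly, 3 of 10 were higher (30%, likewise near that share) and 4 lower (40%). Aurka and Plk1, mitotic kinases that also drive resorption, fell by 2.24 ± 0.46 and 2.01 ± 0.48, and Pifo was listed at 0 in all of 2D and was at 12.04 to 53.3 FPKM in 3D. Of the dynein-2 light chains and Kif3c, 2 of 6 were higher (33.3%) and 3 lower (50%). Dynlrb2 was listed at 0 in 2D and was at 50.2, 2.32, 2.61 and 4.02 in 3D, so mouse 1 held most of it, and Dynll1, a light chain shared with cytoplasmic dynein, fell by 0.91 ± 0.11.

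**Figure D5:**
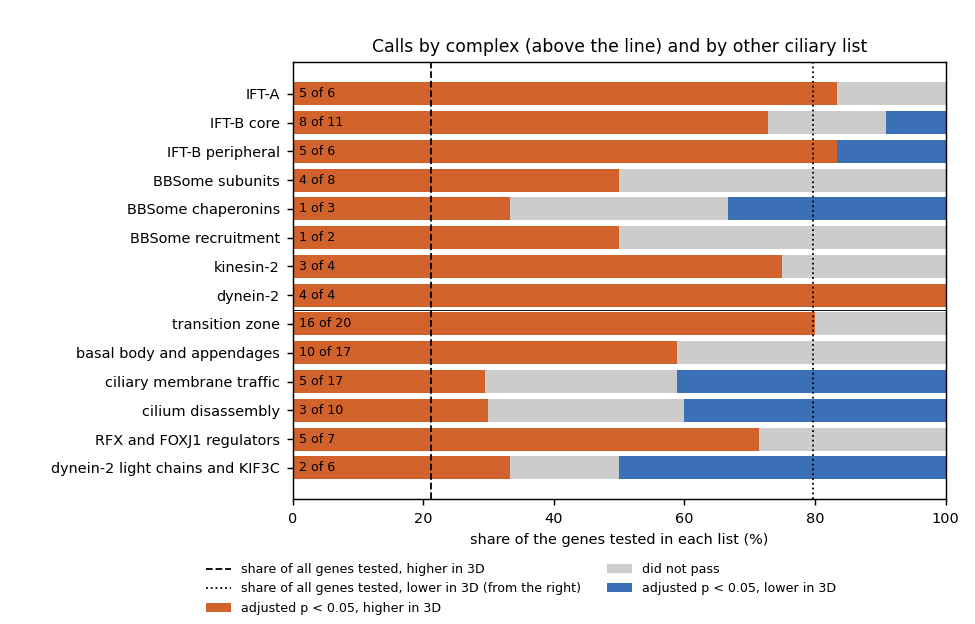
Share of the genes tested in each list that were higher (orange) or lower (blue) in 3D at an adjusted p below 0.05 or did not pass (grey), with the complexes above the thin line and the other ciliary lists under it. The dashed and dotted lines give the shares over all genes tested, 21.2% higher and 20.3% lower, the latter measured from the right.

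Of the RFX and FOXJ1 regulators, 5 of 7 tested were higher and 2 did not pass. Foxj1 was at 0.0773, 0.0779, 0.0968 and 0.264 FPKM in 2D and at 353, 107, 147 and 194 in 3D. Rfx2 was at 0.267, 0.286, 0.122 and 0.119 in 2D and at 10.4, 3.72, 4.93 and 7.63 in 3D, and Rfx3 was at 1.10, 1.54, 1.14 and 1.22 in 2D and at 15.7, 4.39, 4.26 and 7.34 in 3D. The 3D libraries of mice 1 and 7 were again the high ones for all of these. The log2 fold change was 7.34 ± 0.33 (adjusted p 3.21e-06) for Foxj1, 2.60 ± 0.27 (adjusted p 0.000245) for Rfx2 and 1.82 ± 0.37 (adjusted p 0.00551) for Rfx3. Rfx5 and Rfx7, at 0.74 ± 0.14 and 0.52 ± 0.16, also rose, and Rfx1 at 0.43 ± 0.15 did not pass (adjusted p 0.0569). Rfx4 was at most 0.042 FPKM in any library, and Rfx6 was listed at 0 in all.

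Since FOXJ1 marks cells with motile cilia, the markers of multiciliated cells are given beside these results. Of 25 such markers, 20 were tested, of which 10 were higher and 10 did not pass. Their summed level was 8.16 to 15.3 FPKM in 2D and 371, 82.2, 134 and 217 in 3D, so it was highest in mice 1 and 7, as were the 44 genes. Among the regulators of the multiciliated state in this list, Mcidas was at most 0.0248 FPKM and Gmnc was listed at 0 in every library. They are named for being at or near 0, and Ccno, Deup1 and Cdc20b of the same list are not described here. The axonemal dynein genes of the list were not alike. Dnah5 was at most 0.0489 FPKM. Dnah11 was at 0.217, 0.152, 0.0698 and 0.138 in 2D and at 27.6, 4.01, 5.20 and 7.06 in 3D and rose by 3.01 ± 0.51 (adjusted p 0.00248). Dnah9 was at 11.2 FPKM in 3D mouse 1 and at most 0.239 in the other libraries, and did not pass (adjusted p 0.347). Of 12 proliferation markers, 8 fell and 4 did not pass, and their median log2(FPKM + 1) was 5.04, 4.20, 3.84 and 5.26 in 2D and 3.46, 3.44, 2.80 and 2.04 in 3D. Epithelial, multiciliated and proliferation markers thus differed between the same groups of libraries as the 44 genes, and their part in the differences was not tested. Without 2D mice 3 and 4, whose keratin levels were high, 31 of the 34 calls remained. That step takes epithelial signal out of 2D only, so it cannot show what part the epithelial markers have.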

How the data were processed

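Total RNA of 8 mouse ADSC cultures, 4 in 2D and 4 in 3D, was depleted of ribosomal RNA and made into directional libraries that were sequenced in paired ends. The authors removed adapters and low-quality reads (FASTX_Trimmer, BBMap), aligned the rest by TopHat to a genome that the submitters' processing notes name as mm10, and estimated gene levels with Cufflinks. The deposited FPKM values per gene and library are these estimates, without read counts and without the quantile normalization that the methods name as the next step. The annotation and the strand setting are not given in the sources used here.

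Of the 24346 genes listed, 5484 at 0 in all libraries were left out. The other 18862 were quantile normalized and converted to log2(FPKM + 1), and the 2 culture types were compared with limma 3.58.1 in R 4.3.3 (moderated test with an intensity trend, no covariates), with Benjamini-Hochberg adjustment over all genes tested and a threshold of 0.05. No count model was used. Since 1 fragment is worth a fixed step of FPKM at a given length, depth was read from low values of 877 single-transcript genes of 3000 nt or more, assuming fragments of 200 nt, and 72.2% to 84.6% of low values lay within 0.15 of a whole multiple. The level that 3 fragments give covers counting error only. The model was checked on simulated data of the same comparison over 18862 genes, of which 200 were changed. It recovered 38 of 100 genes with a log2 change of 1 in either direction and 87 of 100 with a change of 2, with 4 false calls. Only 200 genes were changed there, whereas in the data 4000 genes were called higher and 3823 lower. The adjusted threshold was therefore stricter in the simulation, and the recovered shares are not those of this comparison. A gene that did not pass may still differ.

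Mice 4 and 5 gave libraries of both kinds, so their numbers pair these libraries. The deviations of their 2D and 3D libraries from the group means correlated at -0.05 and -0.11 over 12577 genes. P-values measure the spread between cultures of different mice.

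The 44 genes, the other ciliary lists and the marker lists were chosen with earlier results of these data known. Levels by library are given, in each complex, for up to 4 genes with the largest absolute fold change among those past the threshold without overlap, for the gene with the highest mean level over all 8 libraries, and for genes that move against their complex or are near 0. Of the other ciliary lists, the 1 or 2 largest rises and falls past the threshold and the RFX factors are named, and of the marker lists the defining genes at or near 0. Keratins are named because they set the sums of 2 libraries, and Dnah9 and Dnah11 because they differ from Dnah5, and both were chosen after their values were seen. Coordinates are from GENCODE M21 (GRCm38, which is mm10), to which 23310 (95.7%) of the listed symbols were matched, and promoters are from RefSeq on GRCm38.p6, where 37 of the 39 used ended inside the start of a GENCODE transcript of the gene. The alternatives were the values as deposited, median scaling, a pseudocount of 0.1, a filter at a mean of 1 FPKM, no intensity trend, a block or a random effect for the mouse, mice 4 and 5 alone, each library left out in turn, and the motif with a shorter or longer spacer. A correction for transcript length and GC content, the block with that correction, and leaving out 2D mice 3 and 4 together were chosen after seeing the data. The authors' other assays were not used here.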

Additional observations from a re-analysis of the deposited data

Results flagged for a closer look

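Ttc21b in 3D mouse 1, at 6.72 FPKM, lay far from the other 3 libraries of 3D, which were at 9.12 to 9.48. On the log2(FPKM + 1) scale, the gap to the nearest of them was 0.886 of the whole range of the group, above the 95% critical value of Dixon's test for 4 samples. It was the only result so flagged among 88 groups of 4 libraries (44 genes in 2 culture types), and chance flags about 1 in 20 groups. This library was among the 2 highest of 3D for each of the other 5 IFT-A genes.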

How the results depend on the processing

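Of the 34 calls, 31 remained under every alternative in which they were tested, other than the mouse as a block, only mice 4 and 5, and leaving out 2 libraries together. The exceptions were Ift52, Ttc30a1 and Kif3b. Kif17, among the 31, was not tested with the filter at 1 FPKM or with the length and GC correction. Without 2D mice 3 and 4, 31 of the 34 remained, and Ift140, Ttc30a1 and Traf3ip1 did not. The mouse as a random effect (estimated correlation -0.04) and no intensity trend changed none of the 34 calls.

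When single libraries were left out, 28 to 32 genes were higher and 3 lower, with a median log2 fold change of 0.95 to 1.17. By complex, the higher genes then numbered 5 in IFT-A, 6 to 8 in the IFT-B core, 5 in the IFT-B periphery, 4 to 5 of the BBSome subunits, 1 of the chaperonins, 1 to 2 of the recruitment genes, 2 to 4 of kinesin-2 and 4 of dynein-2. The medians were 0.83 to 1.03 for IFT-A, 1.09 to 1.36 for the core, 1.22 to 1.46 for the periphery, 0.76 to 1.00 for the BBSome subunits, 0.28 to 0.52 for the chaperonins, 0.87 to 1.06 for recruitment, 0.72 to 0.86 for kinesin-2 and 2.23 to 2.64 for dynein-2. Of the other ciliary genes, 37 to 42 were higher and 13 to 16 lower.

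With the mouse as a replicate block, 0 genes passed in any complex or in the other ciliary lists (limma, 1 residual degree of freedom). At an unadjusted p under 0.05, 18 of the 44 were higher and 1 lower, counts that have no share over all genes beside them. The medians were then 0.84 for the core, 1.00 for the periphery, 0.51 for the BBSome subunits and 0.60 for recruitment. The block takes the difference from mice 4 and 5 alone, since each other mouse gave 1 library. A fit with only mice 4 and 5 thus estimates the same difference, and its medians of 0.84, 1.00, 0.51 and 0.60 are no separate support. In it 13 genes were higher and 1 lower. Of the higher genes, 1 was in IFT-A, 6 in the core, 1 in the periphery, 1 a BBSome subunit, 0 chaperonins, 0 recruitment genes, 2 of kinesin-2 and 2 of dynein-2. Of the other ciliary genes, 21 were then higher and 7 lower. With the block together with the length and GC correction, 11 genes were higher and 1 lower, with 1 higher in IFT-A, 5 in the core, 1 in the periphery, 1 BBSome subunit, 0 chaperonins, 0 recruitment genes, 1 of kinesin-2 and 2 of dynein-2, and 18 higher and 5 lower of the other ciliary genes. Its medians were 0.96 for the core, 1.01 for the periphery, 0.57 for the BBSome subunits, 0.69 for recruitment and 0.46 for kinesin-2. Each of these fits has fewer degrees of freedom or libraries, and the cause of the losses was not tested. The losses were not particular to these genes. Over all genes, 4000 were higher and 3823 lower of 18862 in the main fit, and 0 and 0 with the block. With only mice 4 and 5 they were 1788 and 1432 of 18081, and with the block and the correction 1093 and 1015 of 12102.

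With the values as deposited, 2 chaperonins and 2 recruitment genes were higher, and the median of the chaperonins was 0.68. With median scaling, which moved the median of the 12577 genes at 1 FPKM or more to -0.08, 2 chaperonins were higher, as with the length and GC correction. The median of kinesin-2 was 1.08 with a pseudocount of 0.1, 0.52 with the filter at 1 FPKM, which leaves out Kif17, and 0.56 with the length and GC correction. The motif was in 3 promoters with the shorter spacer and in 1 with the longer, against 6.

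Genes that changed sign were not called in any of these fits. Bbs5 was at 0.050 with the values as deposited, 0.032 with the length and GC correction, 0.038 without 2D mice 3 and 4, and -0.199 to 0.074 with a library left out. Ift46 was at -0.027 with the block, -0.026 with only mice 4 and 5, -0.020 with the block and the correction, and -0.018 to 0.251 with a library left out. Bbs7 was at -0.094 with the block, -0.094 with only mice 4 and 5 and -0.041 with the block and the correction. Ift27 was at -0.27 to 0.00045 with a library left out.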
